A study of Mus musculus with 6 samples.

Results

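The mu and pi classes of glutathione transferase were followed in the liver RNA of mice on 2 diets. The 8 genes looked for were Gstm1 to Gstm6 (mu class) and Gstp1 and Gstp2 (pi class), chosen by name. A probe set belonged to them when the platform's gene table gave it 1 gene symbol and that symbol was one of the 8. This found 13 of the 12488 probe sets, from 6 of the 8 genes and of the 8252 genes that the table names singly: 4 for Gstm5, 2 each for Gstm1, Gstm2, Gstm3 and Gstm6, and 1 for Gstp1. No probe set in that table carried the single symbol Gstm4 or Gstp2, so these genes are not analysed here. Whether probe sets named for their relatives also measured them was not tested. Of the 12 that were bright enough to test, 0 passed between the diets in limma, and 3 had an unadjusted p under 0.05. Both probe sets of Gstm6 gave slightly lower estimates on the high-fat diet, Gstp1 differed mainly among the high-fat arrays themselves, Gstm1 lay at the same level on both diets within the error, and the probe sets of Gstm3 and of Gstm5 disagreed with one another.

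The study held 6 Affymetrix mouse arrays of liver total RNA, 3 for C57BL/6 mice given a Western style diet high in fat and 3 for C57BL/6 mice given a diet low in fat, each for 12 weeks. C57BL/6 is a common inbred laboratory strain. The sample titles name no altered allele for these mice, although the labels carry the keyword LDL receptor deficiency. How the keyword relates to these 6 arrays was not tested. The labels give no sex, age or diet composition. The labels call the arrays replicates and do not say whether RNA was pooled between mice, so p-values measure the spread between these arrays.

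Glutathione transferases join the tripeptide glutathione to electrophilic compounds, such as drug metabolites and products of lipid peroxidation, which are then carried out of the cell and excreted as mercapturates. The cytosolic enzymes are dimers and are divided by sequence into classes, among them alpha, mu, pi and theta. Hepatocytes hold large amounts of them, and in mice pi class transferase is known to be more abundant in male than in female liver. Several of the genes respond to the transcription factor NRF2, which acts through antioxidant response elements, and to the xenobiotic receptors CAR and PXR.

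In the RefSeq gene table of GRCm38.p6, the mu genes lie as 1 cluster on chromosome 3 in the order Gstm5, Gstm7, Gstm6, Gstm3, Gstm2, Gstm1, Gstm4, and the pi genes lie side by side on chromosome 19 as Gstp1, Gstp2, Gstp3. The upstream sequences of the 2 pi genes and of Gstm5 are shown because these were the members in which the AP-1 or antioxidant response motif was found, and because Gstp1 and Gstp2 are close neighbours of which the array names only Gstp1. Each is the 250 bases before the RefSeq transcript start in GRCm38.p6, read 5′ to 3′ on the gene's own strand. Capitals mark matches to TGAGTCA, the sequence bound by AP-1 factors, or to TGACNNNGC, the core of the antioxidant response element, on either strand.
Gstp1, chr19:4037913-4038162, minus strand: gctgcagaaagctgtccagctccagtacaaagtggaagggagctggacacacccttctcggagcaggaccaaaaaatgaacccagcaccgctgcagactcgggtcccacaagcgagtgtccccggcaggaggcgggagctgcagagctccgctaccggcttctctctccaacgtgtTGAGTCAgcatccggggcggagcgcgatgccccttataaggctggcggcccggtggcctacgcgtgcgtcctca
Gstp2, chr19:4042222-4042471, minus strand: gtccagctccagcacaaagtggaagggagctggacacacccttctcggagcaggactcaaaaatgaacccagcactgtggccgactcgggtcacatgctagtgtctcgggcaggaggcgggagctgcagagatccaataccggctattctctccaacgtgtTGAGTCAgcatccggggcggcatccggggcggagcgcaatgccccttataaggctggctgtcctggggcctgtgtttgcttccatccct
Gstm5, chr3:107895604-107895853, plus strand: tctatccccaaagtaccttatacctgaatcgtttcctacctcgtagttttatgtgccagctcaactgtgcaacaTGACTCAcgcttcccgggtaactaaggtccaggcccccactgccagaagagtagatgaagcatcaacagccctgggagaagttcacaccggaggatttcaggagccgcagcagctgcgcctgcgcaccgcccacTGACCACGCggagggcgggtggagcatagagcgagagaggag

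The TGAGTCA match began 74 bases before the start in Gstp1 and 89 bases before it in Gstp2. In Gstm5 the same motif lay on the other strand, 176 bases before the start, and a TGACNNNGC match began 42 bases before it. The upstream windows of Gstp1 and Gstp2 were identical at 208 of 265 aligned columns (78.5%), whereas pairs of different mu genes gave between 43.5% and 58.1%. The 8 genes had 12 such windows in the RefSeq table, of which 3 held TGAGTCA and 1 held TGACNNNGC. Of all 32851 windows of that length, 4.46% held TGAGTCA and 10.2% held TGACNNNGC. TGAGTCA was added to the search after these sequences were seen. The windows of Gstp1 and Gstp2 are also much alike, and some windows belong to the same gene. An excess of TGAGTCA in the members therefore cannot be judged from these counts. TATAA was also searched, and was found in 4 of the 12 windows, those of Gstp1, Gstp2, Gstm5 and 1 of the 2 of Gstm1, against 22.8% of all windows. TGAGTCA and TGACNNNGC can overlap each other. A match describes letters only, and a window without a match may still hold a variant of the element.

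The test was limma's moderated test of high-fat minus low-fat diet on log2 intensities, with values under 68.9 set to that floor, two-sided and adjusted by Benjamini and Hochberg over all 8950 tested probe sets. Of these, 74 passed an adjusted p of 0.05 (0.827%). Of the 13 member probe sets 12 were tested, and the remaining one, 161722_f_at of Gstm5, lay below the floor on all 6 arrays. Of the 12, 0 passed in limma (smallest adjusted p = 0.437), and 3 reached an unadjusted p under 0.05, against 812 of all 8950 (9.07%). Fold changes were below 0 for 9 of the 12 and for 49.5% of all tested probe sets, and the median log2 fold change was -0.088, against 0.0026 over all tested probe sets. High-fat and low-fat arrays were fully separated in 2 of the 12, against 14.1% of all tested probe sets, so the members' share of separated probe sets lay close to the background.

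**Figure D1:**
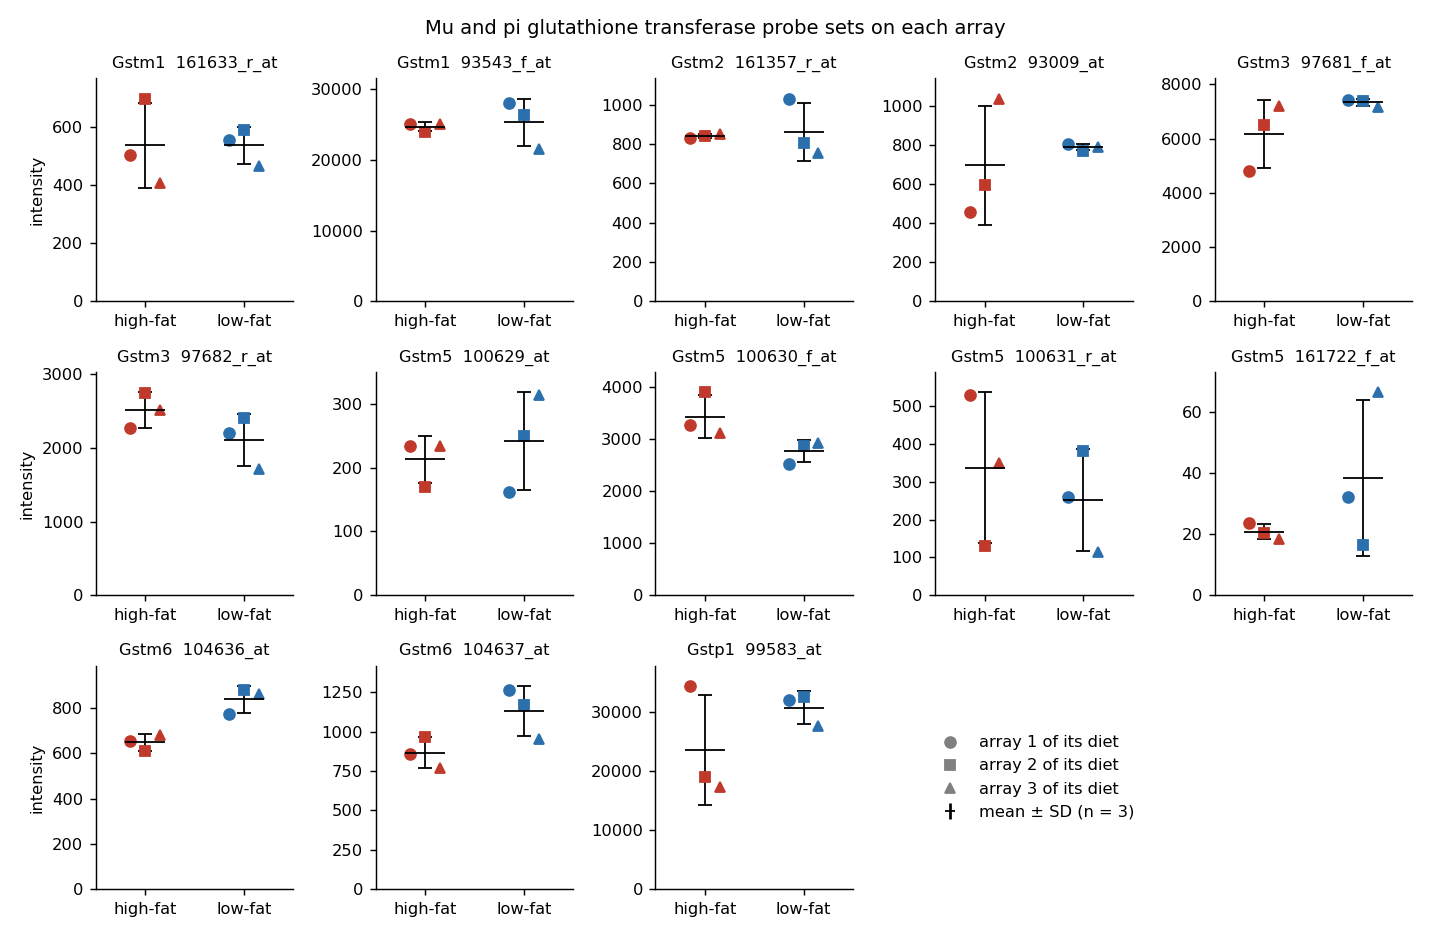
Deposited intensity (linear, each panel from 0) of the 13 member probe sets on the 3 high-fat and 3 low-fat arrays; points are arrays, the horizontal bar is the mean and the whiskers are ± SD. The diets separate in 104636_at of Gstm6 and 100630_f_at of Gstm5, and high-fat array 1 stands apart from the other 2 high-fat arrays for Gstp1.

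Gstp1 encodes the pi class subunit and is known, besides conjugation, for binding and restraining the stress kinase JNK. The gene was read by probe set 99583_at alone, and whether this also measured Gstp2 was not tested. The intensity of 99583_at was 34418.4, 18976.6 and 17387.1 on high-fat arrays 1, 2 and 3, against 32121.6, 32672.5 and 27642.6 on low-fat arrays 1, 2 and 3. High-fat arrays 2 and 3 lay below every low-fat array, while high-fat array 1 lay above all of them, so the diets overlapped. The mean was 23594 ± 9408 on the high-fat diet and 30812 ± 2759 on the low-fat diet (SD, n = 3 each). The log2 fold change was -0.45 ± 0.25 (SE), with a 95% interval from -1.02 to 0.12 (limma, adjusted p = 0.687), which corresponds to between 0.494-fold and 1.08-fold of the low-fat level. The estimate turned on high-fat array 1: without it the log2 fold change was -0.76 with an adjusted p of 0.0741, and with any other array left out it ran from -0.53 to -0.27. The highest and lowest high-fat arrays differed 1.98-fold, the low-fat arrays 1.18-fold.

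Ratios of RNA integrity differed among the arrays. The Gapdh 3′ to 5′ ratio, read from control probe sets at both ends of the transcript, was 1.22, 1.23 and 0.889 on high-fat arrays 1, 2 and 3, against 1.04, 1.07 and 0.824 on low-fat arrays 1, 2 and 3. The low Gapdh ratios were those of array 3 on either diet. The beta-actin ratio was 1.62, 1.96 and 1.79 on high-fat arrays 1, 2 and 3, against 1.63, 1.56 and 1.75 on low-fat arrays 1, 2 and 3. High-fat array 1, the one with the highest Gstp1, thus had a lower actin ratio than the other 2 high-fat arrays. The pyruvate carboxylase ratio was 6.94, 7.96 and 2.62 on high-fat arrays 1, 2 and 3, against 3.78, 4.50 and 2.65 on low-fat arrays 1, 2 and 3. The part of RNA integrity in the Gstp1 values was not tested beyond the Gapdh ratio. With the log2 Gapdh ratio in the model, a setting added once the values were known, the estimate for Gstp1 was -0.63 on the log2 scale (adjusted p = 0.308). Xist, a transcript of female cells, was looked at after the Gstp1 values were seen, because of the known sex difference in this enzyme. It lay below the floor on all 6 arrays, between 9.0 and 46.4 on the high-fat arrays and between 6.5 and 31.7 on the low-fat arrays. A list of male-biased liver genes had 7 tested members, of which 0 passed in limma and 2 reached an unadjusted p under 0.05. Over all tested genes, 0.915% passed and 9.5% reached an unadjusted p under 0.05.

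The 5 genes whose log2 values over the 6 arrays were closest to those of Gstp1 were Serpind1, Arg1, Ptpn12, Itih1 and Mrpl34, out of 6551 genes compared, with Pearson's r from 0.973 to 0.986. The 6 points share arrays and their scaling, so these are descriptions of pattern. Serpind1 encodes the plasma thrombin inhibitor heparin cofactor II, Arg1 the urea cycle enzyme arginase and Itih1 a chain of the plasma inter-alpha-trypsin inhibitor, all products of hepatocytes. Arg1 stood at 17483.5, 12069.7 and 10572.6 on high-fat arrays 1, 2 and 3, against 15278.9, 16948.3 and 14902.7 on low-fat arrays 1, 2 and 3. As with Gstp1, high-fat array 1 lay above the low-fat arrays and the other 2 high-fat arrays below them. For Arg1 the log2 fold change was -0.26 ± 0.19 (SE, limma, adjusted p = 0.781).

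**Figure D2:**
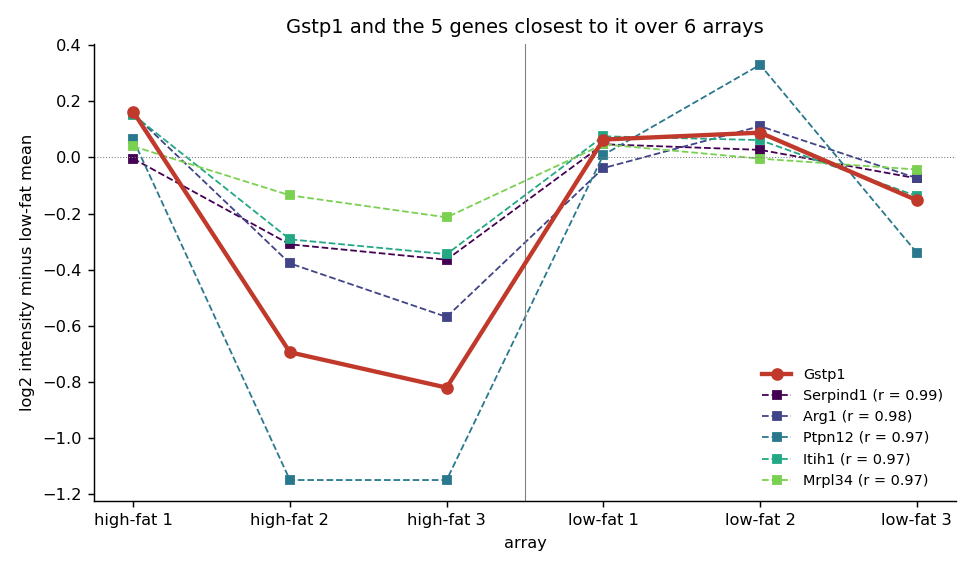
Log2 intensity of Gstp1 and of its 5 closest genes on each array, minus the mean of the gene's own low-fat arrays, with r over the 6 arrays in the legend. High-fat array 1 lies near or above the low-fat mean and high-fat arrays 2 and 3 lie below it in all 6 genes; Ptpn12 was at the floor on high-fat arrays 2 and 3.

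The summed intensity of 8 hepatocyte markers differed among the arrays of both diets. It was 186100, 156547 and 142203 on high-fat arrays 1, 2 and 3, against 189150, 178678 and 152074 on low-fat arrays 1, 2 and 3. On both diets it fell from array 1 to array 3. All 8 were above the floor on every array, which matches the liver label. In bulk tissue, fewer hepatocytes and less RNA per hepatocyte cannot be told apart, and the part of either in the Gstp1 values was not tested. Summed markers of other cell types were as follows. Those of 10 Kupffer cell and macrophage genes lay between 7205 and 9459 on high-fat arrays and between 5678 and 6667 on low-fat arrays, and those of 8 stellate cell and fibroblast genes between 7502 and 9232 on high-fat arrays and between 7039 and 7342 on low-fat arrays. These did not overlap between the diets, whereas the sums for cholangiocyte, endothelial, lymphocyte, erythroid and pancreatic acinar genes did. Of all tested single probe sets, 14.1% were separated, a share that is not a background for sums over several genes. The smallest adjusted p in limma were 0.0742 for the macrophage gene Mpeg1 and 0.551 for the stellate gene Dcn. Dcn, the brightest stellate gene, made up most of every stellate sum. It read between 4461.9 and 5501.5 on high-fat arrays and between 4039.4 and 4057.7 on low-fat arrays. The separation of the stellate sums therefore rested on Dcn. Its log2 fold change was 0.27, while Col1a2 had -0.074. A difference in cell content was not tested. The lymphocyte marker Cd3d lay at or below the floor throughout.

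Gstm1 encodes the main mu class subunit of mouse liver. Its family probe set 93543_f_at, whose suffix marks probes shared within a gene family, read 25088.2, 23920.5 and 25121.5 on the high-fat arrays, against 28042.3, 26277.3 and 21538.8 on the low-fat arrays. The high-fat arrays lay within the range of the low-fat arrays. The log2 fold change was -0.025 ± 0.15 (SE), with a 95% interval from -0.37 to 0.32 (limma, adjusted p = 0.986), which leaves room for a fold between 0.772 and 1.25. The other probe set, 161633_r_at, for which the array's probe selection rules had been relaxed, averaged 536 ± 147 on the high-fat diet and 537 ± 63.6 on the low-fat diet (SD, n = 3 each). Its interval was wider, from -0.52 to 0.47. For this gene both estimates were near 0, although over the 6 arrays the 2 probe sets followed each other only weakly (r = 0.19). Which family members 93543_f_at measured was not tested.

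The 5 genes closest in pattern to 93543_f_at of Gstm1 were Olfr15, Tor3a, Bckdhb, Rbm4b and Pam16, with r from 0.959 to 0.989 over the 6 arrays. None of them was called, and their log2 fold changes ran from -0.17 to 0.040. Having been picked for likeness to 93543_f_at, they shared its order of the low-fat arrays, with array 1 highest and array 3 lowest. Olfr15 lay below the floor on low-fat array 3, at 59.4.

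Gstm2 and Gstm3 encode further mu subunits of liver. For Gstm2, probe set 93009_at read 456.0, 592.9 and 1035.8 on high-fat arrays 1, 2 and 3, against 805.4, 770.9 and 789.7 on low-fat arrays 1, 2 and 3. The low-fat arrays were nearly equal, while the high-fat arrays spanned 2.27-fold and reached to both sides of them. The log2 fold change was -0.27 ± 0.27 (SE, limma, adjusted p = 0.861). It was -0.021 with the Gapdh ratio as a covariate, and leaving out high-fat array 1 gave -0.0089, while leaving out high-fat array 3 gave -0.60. The second Gstm2 probe set, 161357_r_at, averaged 841 ± 10.7 on the high-fat diet and 864 ± 147 on the low-fat diet (SD, n = 3 each), so the larger spread lay on the other diet. For 161357_r_at the log2 fold change was -0.025, with a 95% interval from -0.37 to 0.32.

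The probe sets of Gstm3 pointed in opposite directions. The family probe set 97681_f_at read 4790.7, 6483.4 and 7213.9 on high-fat arrays 1, 2 and 3, against 7438.6, 7378.4 and 7173.9 on low-fat arrays 1, 2 and 3, a log2 fold change of -0.27 ± 0.16 (SE, limma, adjusted p = 0.710). The diets overlapped only through high-fat array 3, and leaving out high-fat array 1 gave a log2 fold change of -0.10. The relaxed probe set 97682_r_at read 2265.9, 2748.7 and 2520.8 on high-fat arrays 1, 2 and 3, against 2200.9, 2404.6 and 1715.0 on low-fat arrays 1, 2 and 3, a log2 fold change of 0.26 ± 0.15 (SE, adjusted p = 0.698). Over the 6 arrays the correlation between the 2 was -0.11. The 95% intervals, from -0.63 to 0.086 and from -0.076 to 0.60, overlap around 0, and no direction for Gstm3 can be read from them.

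Gstm5 is known in mice mainly from brain and testis. The family probe set 100630_f_at read 3272.5, 3890.7 and 3108.2 on the high-fat arrays, against 2524.3, 2867.9 and 2920.8 on the low-fat arrays. Every high-fat array lay above every low-fat array, and the log2 fold change was 0.30 ± 0.13 (SE), with a 95% interval from 0.013 to 0.59 and an unadjusted p of 0.0424 (limma, adjusted p = 0.526). The probe set without a suffix, 100629_at, averaged 213 ± 36.9 on the high-fat diet and 241 ± 76.4 on the low-fat diet (SD, n = 3 each), with a log2 fold change of -0.15 and an interval from -0.83 to 0.53. The relaxed probe set 100631_r_at averaged 337 ± 199.8 on the high-fat diet and 252 ± 134 on the low-fat diet (SD, n = 3 each), and its interval ran from -0.90 to 1.64. The 3 correlations among these probe sets lay between -0.22 and -0.012. Among the Gstm5 probe sets, the diets were thus separated in the family probe set alone, and which family members it measured was not tested.

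Gstm6 lies next to Gstm3 in the cluster, and neither of its probe sets carries a suffix. Probe set 104636_at read 654.2, 610.2 and 682.2 on the high-fat arrays, against 772.8, 882.5 and 861.7 on the low-fat arrays. Every high-fat array lay below every low-fat array, and the log2 fold change was -0.37 ± 0.14 (SE), with a 95% interval from -0.68 to -0.060 and an unadjusted p of 0.0245 (limma, adjusted p = 0.437). Probe set 104637_at read 859.7, 966.7 and 769.5 on the high-fat arrays, against 1263.2, 1171.1 and 952.8 on the low-fat arrays, with overlap between high-fat array 2 and low-fat array 3. For 104637_at the estimate was -0.38 ± 0.16 (SE) on the log2 scale, with a 95% interval from -0.73 to -0.029 and an unadjusted p of 0.0369 (adjusted p = 0.500). The probe sets of Gstm6 gave nearly the same estimate, 1.29-fold and 1.30-fold lower on the high-fat diet, and their correlation over the 6 arrays was 0.54. With each array left out in turn the log2 fold changes ran from -0.43 to -0.33 for 104636_at and from -0.50 to -0.29 for 104637_at. For 104636_at the sign could not change in this way, because its diets were fully separated. Neither passed after adjustment over all probe sets.

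**Figure D3:**
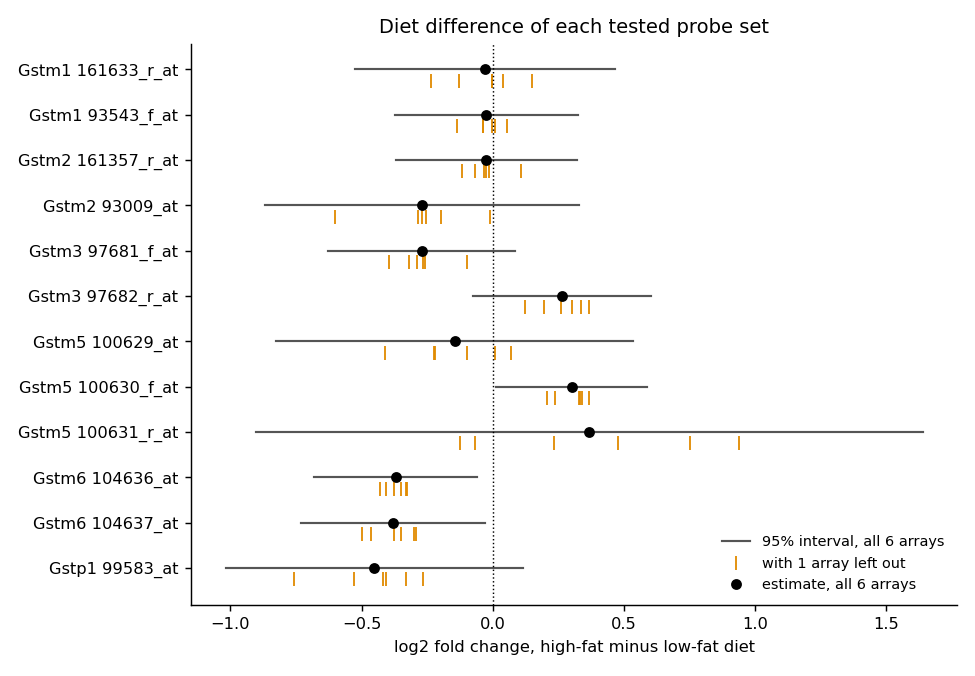
Log2 fold change (high-fat minus low-fat diet) of the 12 tested member probe sets, with limma's 95% interval from all 6 arrays and, as ticks, the estimates with 1 array left out. The intervals of 9 of the 12 hold 0; those of both Gstm6 probe sets lie below 0 and that of 100630_f_at of Gstm5 above it.

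The intervals of single probe sets show what the 6 arrays could have missed. The smallest lower bound among the 12 was -1.02, for Gstp1, and the largest upper bound 1.64, for 100631_r_at of Gstm5. Gstp1 had the estimate furthest from 0. Within a diet, the members' median SD of log2 values was 0.22 for high-fat arrays and 0.19 for low-fat arrays, against 0.25 and 0.24 over all tested probe sets. The high-fat spread was the larger in 6 of the 12 members and in 52.4% of all tested probe sets.

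Other glutathione transferases were set beside the mu and pi members with 1 probe set per gene, the brightest. Of 13 tested genes of the alpha, theta, omega, zeta, kappa and microsomal classes 2 fell, 0 rose and 11 did not pass, 5 reached an unadjusted p under 0.05, and the median log2 fold change was -0.31. Over all 6557 tested genes 0.915% were called, 9.5% reached an unadjusted p under 0.05 and the median was 0.0077. The alpha gene Gsta2 read 1135.3, 898.6 and 913.3 on the high-fat arrays, against 3065.1, 3081.6 and 3236.3 on the low-fat arrays. Its log2 fold change was -1.68 ± 0.13 (SE, limma, adjusted p = 7.52e-04), with an interval from -1.97 to -1.39. The theta gene Gstt2 had a log2 fold change of -1.53 ± 0.22 (SE, adjusted p = 0.0177), with an interval from -2.03 to -1.02. Both intervals lay below those of all 12 mu and pi probe sets, though the upper bound for Gstt2 and the lower bound for Gstp1 were the same to 2 decimals. Gsta2 and Gstt2 were picked out because they were called, so they do not stand for their classes. Among the transferases not called, Gsta4 had a log2 fold change of -1.32, while Gsta3 had -0.31, Gstt1 0.054 and Gstz1 0.19. The difference between the classes was not tested. On the same basis, the 6 measured mu and pi genes had a median of -0.15, with 2 of 6 at an unadjusted p under 0.05 and 5 of 6 below 0, against 48.7% of all tested genes below 0.

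Genes that make and recycle glutathione did not pass either. Of 11 tested genes 0 were called in limma and 1 reached an unadjusted p under 0.05, 3 were below 0 and the median was 0.17. The shares over all tested genes were 0.915% called, 9.5% at an unadjusted p under 0.05 and 48.7% below 0. Gclc, the catalytic subunit of the enzyme that limits glutathione synthesis, stood at 3498 on average on the high-fat diet against 2377 on the low-fat diet, with separated arrays and a log2 fold change of 0.57 ± 0.20 (SE, adjusted p = 0.391). Glrx, a glutaredoxin, had 0.28 ± 0.13 (SE, adjusted p = 0.577) on the same scale. Of 8 tested genes of the mercapturate pathway and of conjugate export, 0 were called and 1 reached an unadjusted p under 0.05, 7 were below 0 and the median was -0.12. The log2 fold changes with the smallest p among them were 0.59 for Ggt5, a gamma-glutamyl transferase relative read near the floor, and -0.36 for the aminoacylase Acy1 (adjusted p = 0.498 and 0.582).

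The regulators of these genes were read through their targets. Among all tested genes, 0.915% were called, 9.5% reached an unadjusted p under 0.05 and 48.7% were below 0. Of 16 tested NRF2 targets other than transferases 0 passed in limma and 3 reached an unadjusted p under 0.05, 5 were below 0 and the median log2 fold change was 0.059. The carboxylesterase gene Ces1g and the UDP-glucose dehydrogenase gene Ugdh had the smallest p, with log2 fold changes of -0.60 and -0.48 (adjusted p = 0.147 and 0.180). Nfe2l2, which encodes NRF2 and is part of that list, had 0.38 ± 0.19 (SE, adjusted p = 0.611). Of 8 tested genes for CAR, PXR and their targets 1 fell and 7 did not pass, 2 reached an unadjusted p under 0.05, and all 8 were below 0, with a median of -0.23. The gene that fell was Cyp2b10, a cytochrome P450 induced through CAR, at 300 ± 30.1 on the high-fat diet and 714 ± 91.8 on the low-fat diet (SD, n = 3 each), with a log2 fold change of -1.25 ± 0.18 (SE, adjusted p = 0.0173). Cyp3a25 had -0.95 ± 0.18 (SE, adjusted p = 0.0579).

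Zonation of the liver lobule was looked at because several drug-metabolising enzymes are known to lie near the central vein. Of 10 tested pericentral genes 0 were called in limma (3 at an unadjusted p under 0.05), with 6 below 0 and a median of -0.11, and of 9 tested periportal genes 0 were called (2 at an unadjusted p under 0.05), with 7 below 0 and a median of -0.26. The same shares over all tested genes were 0.915% called, 9.5% at an unadjusted p under 0.05 and 48.7% below 0. The smallest p in the pericentral list were those of Lect2, a secreted hepatocyte protein, and Cyp7a1, the rate-limiting enzyme of bile acid synthesis, with log2 fold changes of 0.59 and -1.62 (adjusted p = 0.124 and 0.366). In the periportal list they were those of Pck1, a gluconeogenic enzyme, and Hal, histidine ammonia-lyase, at -0.78 and -0.86 (adjusted p = 0.0560 and 0.428). Among the male-biased genes they were those of the elongase Elovl3 and the oxysterol hydroxylase Cyp7b1, at 0.95 and -0.82 (adjusted p = 0.180 and 0.256).

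**Figure D4:**
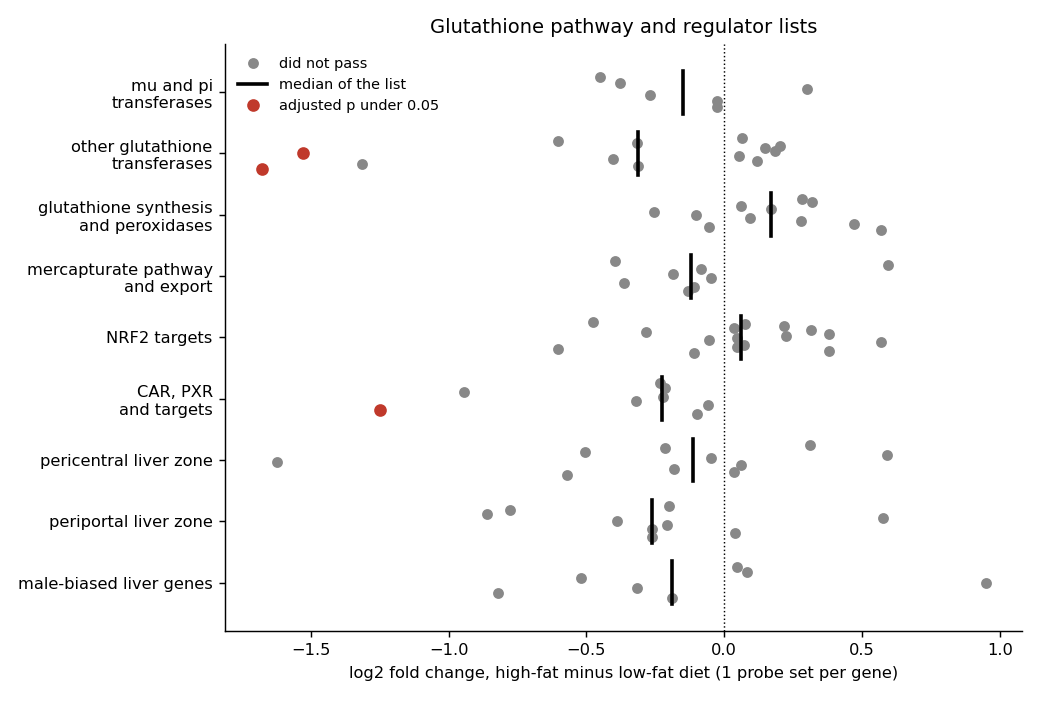
Log2 fold change (high-fat minus low-fat diet) of every tested gene of the mu and pi members and of 8 further lists, 1 probe set per gene; red points passed an adjusted p of 0.05 and black bars are list medians. The called genes are Gsta2 and Gstt2 among the other transferases and Cyp2b10 among the CAR and PXR genes, and 0 of the 6 mu and pi genes passed.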

How the data were processed

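The deposited table holds 1 linear intensity per probe set and array, scaled by the authors array by array: the mean without the lowest and highest 2% was 500.4 on all 6 arrays, and medians ran from 171.5 to 188.4. No source used here names the authors' software or background correction. Diet and array number came from the titles. Of 12488 probe sets, 10855 had 1 symbol in the platform's table, 396 several and 1237 were unlisted. By gene ID 10839 matched RefSeq (GRCm38.p6), which changed 0 symbols. The floor, 68.9, is the pooled 30th percentile. Testing used R 4.3.3 with limma 3.58.1 (lmFit, eBayes with a trend) on probe sets above it on at least 3 arrays, leaving out 66 control probe sets, and the method was tested on simulated data. Intervals are limma's 95% intervals of single probe sets. Promoters came from RefSeq and were aligned with Biopython 1.88. The motif TGAGTCA was added after the sequences were seen. The number of arrays limits the precision. Changes shared by most transcripts are removed by whole-array scaling.

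The members, lists and tests were chosen with earlier results of these data known. Lists are described by counts and medians. All member probe sets are named. From each list every called gene is named, or the 2 with the smallest p where fewer than 2 passed. Gsta2 and Gstt2 were among those known results. Genes named outside this rule were chosen after their values were seen. They include Nfe2l2, Xist, Gsta3, Gsta4, Gstt1, Gstz1, Mpeg1, Dcn, Col1a2 and Cd3d. One item is not reported here. Alternatives were quantile or median scaling, other floors, a constant of 50 added in place of the floor, other filters, other variance models, weights per array, a block on replicate number, leaving out single arrays, probe sets with shared-probe suffixes left out, an adjusted p of 0.10 and the Gapdh ratio as a covariate.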

Additional observations from a re-analysis of the deposited data

How the results depend on the processing

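The count of called member probe sets was 0 under every alternative, among them the replicate block and an adjusted p of 0.10. Over all probe sets the 74 calls became 8 without a filter, 20 without the variance trend, 120 at an adjusted p of 0.10, and between 26 and 75 with 1 array left out (28 when high-fat array 2 was dropped, and 31, 26 and 45 when low-fat array 1, 2 or 3 was). The replicate block gave 103 calls. Deviations of same-numbered arrays from their diet means correlated at 0.071, 0.11 and 0.31 for arrays 1, 2 and 3. High-fat arrays 2 and 3 correlated best with the low-fat array of the same number, and high-fat array 1 with low-fat array 2. Whether the number in the titles pairs the arrays was not tested.

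The signs of both Gstm6 probe sets, of Gstp1, of both Gstm3 probe sets, of 93009_at of Gstm2 and of 100630_f_at of Gstm5 were kept under all alternatives in which they were tested. For 104636_at of Gstm6 and 100630_f_at of Gstm5, whose diets were separated, leaving out 1 array could not change the sign. Other estimates changed sign with 1 array left out. In Gstm1, 161633_r_at ran from -0.24 to 0.15 and 93543_f_at from -0.14 to 0.054. In Gstm2, 161357_r_at ran from -0.12 to 0.11. In Gstm5, 100629_at ran from -0.41 to 0.070 and 100631_r_at from -0.12 to 0.94. With all 6 arrays, the log2 fold change of 100631_r_at was 0.37 ± 0.56 (SE), an estimate with a wide error. With the Gapdh ratio as a covariate, 100629_at was at 0.025, 93009_at of Gstm2 at -0.021, 100631_r_at of Gstm5 at 0.19, and 161633_r_at, 93543_f_at and 161357_r_at at -0.22, -0.077 and -0.065. The cause was not tested. Leaving out suffixes for shared probes removed 3 of the 12 tested members, the family probe sets of Gstm1, Gstm3 and Gstm5. Signal near the floor limits 161722_f_at of Gstm5, for which no direction is given.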
